A study of Rattus norvegicus with 10 samples.

Results

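The genes described here code for the constitutive proteasome, the protease complex that degrades ubiquitin-tagged proteins in every cell. Members were the gene symbols that begin with Psma, Psmb, Psmc, Psmd or Psmg followed by a digit, without the interferon-inducible subunits Psmb8, Psmb9 and Psmb10. A total of at least 44 reads over all libraries was also required. The rule gave 37 genes, each with 1 row, among 22431 rows tested in a table of 32041 RNA records. These were 8 genes of the alpha ring, 7 of the beta ring, 6 ATPases and 10 non-ATPases of the regulatory particle, 5 assembly chaperones, and Psmc3ip, which the symbol rule admits although it codes for a cofactor of recombination and not for a subunit. The symbol Psmg4l1 had a row but did not reach the total, and 45 further symbols were matched to no row, 37 of them named as pseudogenes and the others Psmb11, Psmb3l1, Psmb3l2, Psmb3l3, Psmb6l1, Psmd11, Psmg1 and Psmg3.

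Messenger RNA was sequenced from 10 adult male Sprague-Dawley rats, 5 sham-operated and 5 with traumatic brain injury (TBI). The methods of the study give 3 control and 5 TBI rats for its own expression analysis and do not say which controls. All 10 rats are used here. The injury was lateral fluid percussion, in which a pressure pulse of 3.32 atm on average is applied to the dura through an opening in the left side of the skull. Sham rats had the same pentobarbital-based anaesthesia and the same craniectomy without the pulse, so that both groups carry any effect of surgery. Tissue with CA3 and the dentate gyrus of the left hippocampus was taken 3 months later. According to the study, the injured rats had no EEG recordings and showed no seizures on handling. Whether any of them had spontaneous seizures is not known. The comparison asked which transcripts differ between injured and sham rats long after the impact.

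The proteasome has a barrel-shaped core and a regulatory particle at either end. Outer alpha rings of the core gate the entry of substrates, and inner beta rings hold the catalytic subunits encoded by Psmb5, Psmb6 and Psmb7. The regulatory particle binds ubiquitin chains, removes them, and feeds the unfolded protein into the core with a ring of ATPases. Under interferon the catalytic subunits are replaced by Psmb8, Psmb9 and Psmb10, which gives the immunoproteasome. Transcription of the constitutive genes is known to be raised together by Nfe2l1, a transcription factor that binds antioxidant response elements, when proteasome activity is short.

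Promoters from RefSeq were matched for 33 of the 37 members. Short motifs were searched on both strands of the 250 bases before the annotated start of transcription, as a description of the shared upstream sequence. The core of the antioxidant response element, TGACNNNGC, was present in 6 of 33 member promoters (18.2%) and in 10.2% of all 27457 promoters in the table. The genes with this core were Psma3, Psmb2, Psmb5, Psmb6, Psmd1 and Psmd9. An ETS core, CCGGAAG, was present in 10 of 33 member promoters (30.3%) and in 7.74% of all promoters. CCAAT was present in 17 of 33 (51.5%) against 34.3% of all promoters, and TATAAA in 3 of 33 (9.09%) against 13.1%. No factor binding was measured, so these matches are letters in a sequence and not sites.

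The sequences below stand for the beta ring, because 3 of the 6 promoters with the antioxidant core belong to it. Psmb5 and Psmb2 are shown with the antioxidant core in capitals, and Psmb7 with its 2 ETS cores in capitals. Each is written in the direction of transcription, 5′ to 3′, in GRCr8 coordinates. The Psmb5 stretch is chr15:32047401-32047469 on the minus strand, from 90 to 22 bases before the start. The Psmb2 stretch is chr5:144254960-144255028 on the plus strand, and the Psmb7 stretch is chr3:42827471-42827554 on the minus strand and ends at the base before the start.
Psmb5: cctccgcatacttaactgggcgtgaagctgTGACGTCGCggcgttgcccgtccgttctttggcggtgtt
Psmb2: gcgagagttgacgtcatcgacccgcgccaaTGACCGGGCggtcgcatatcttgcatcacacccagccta
Psmb7: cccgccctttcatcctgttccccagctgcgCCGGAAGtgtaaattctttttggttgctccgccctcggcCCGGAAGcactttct

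Libraries held 23425817 to 31671838 counts on RNA records. Ribosomal RNA took 12.5% to 26.2% of these in 8 rats, and 59.0% and 58.5% in sham replicates 4 and 5. The 2 high-ribosomal libraries hold fewer reads on the members, 35967 and 36658 in all, against 65397 to 94248 in the other rats. Levels are given as CPM, counts scaled to a common library size with the trimmed mean of M-values (TMM), and were not corrected for transcript length, so they are compared between rats and not between genes. Of the cell type markers, the neuronal genes were present in every rat, while the mean centred log2 level of 3 dentate granule cell genes stood at -1.17 in sham replicate 1 and -0.77 in TBI replicate 5 and between -0.18 and 0.55 in the other rats. At an unadjusted p under 0.05, 0 of 5 neuronal, 0 of 5 oligodendrocyte, 0 of 3 CA3 and 0 of 3 dentate genes differed between the groups. At the same threshold 2 of 5 astrocyte, 1 of 5 microglial and 1 of 3 choroid plexus genes were higher in TBI rats. The 1 thalamic gene did not pass, and 7.89% of all rows tested differed. The mean centred log2 level of the choroid plexus genes was 0.970 in sham replicate 4 and 0.858 in TBI replicate 4. In the other rats it ran from -0.869 to 0.401. The dentate count does not show equal levels. The confidence interval of the log2 change ran from -1.22 to 0.61 for Prox1, -0.88 to 0.38 for Calb1 and -1.18 to 0.67 for C1ql2. In bulk tissue, fewer cells of a type cannot be told apart from less RNA per cell.

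No constitutive proteasome gene passed the test between TBI and sham rats. In the quasi-likelihood F test of edgeR, 0 of 37 members had an unadjusted p under 0.05, against 7.89% of all rows tested (4.89% higher and 3% lower in TBI). After Benjamini-Hochberg adjustment over all rows, 0 members and 0% of all rows had an adjusted p under 0.05. DESeq2 likewise gave 0 members, and 3 of all rows. The groups overlapped for every member, and they did not overlap for only 0.923% of all rows. At that share most sets of 37 genes hold none, so the members are not set apart by this. Of the 37 members, 29 had a log2 change below 0, with a median of -0.06 and a range from -0.19 to 0.08. Over all rows tested 52.2% were below 0 and the median was -0.01. The median of the members was -0.02 without TBI replicate 2, -0.03 without TBI replicate 1, -0.10 without TBI replicate 5 and -0.04 without sham replicates 4 and 5, and 23 to 34 members were below 0 when 1 rat was left out. Scaled to total counts instead, 0 of 37 members were below 0, but the median of all rows then stood at 0.498, so that directions are read relative to all rows. The members also vary together between rats, as described further on, so the 29 genes are not separate pieces of evidence.

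A p that misses the threshold does not show equal levels, so the 95% intervals of the fold changes are given. The interval lay within 0.25 on the log2 scale either side of 0 for 24 of 37 members, which corresponds to 1.19-fold. It lay within 0.5, or 1.41-fold, for 36 of 37 members, the exception being Psma8. Over all rows tested, 18.1% had an interval within 0.25 and 64.5% within 0.5. The members were counted more deeply than most rows, with a median of 1579 counts per library against 191, and their levels varied less between rats, with a median coefficient of variation of 8.37% against 14.4%.

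**Figure D1:**
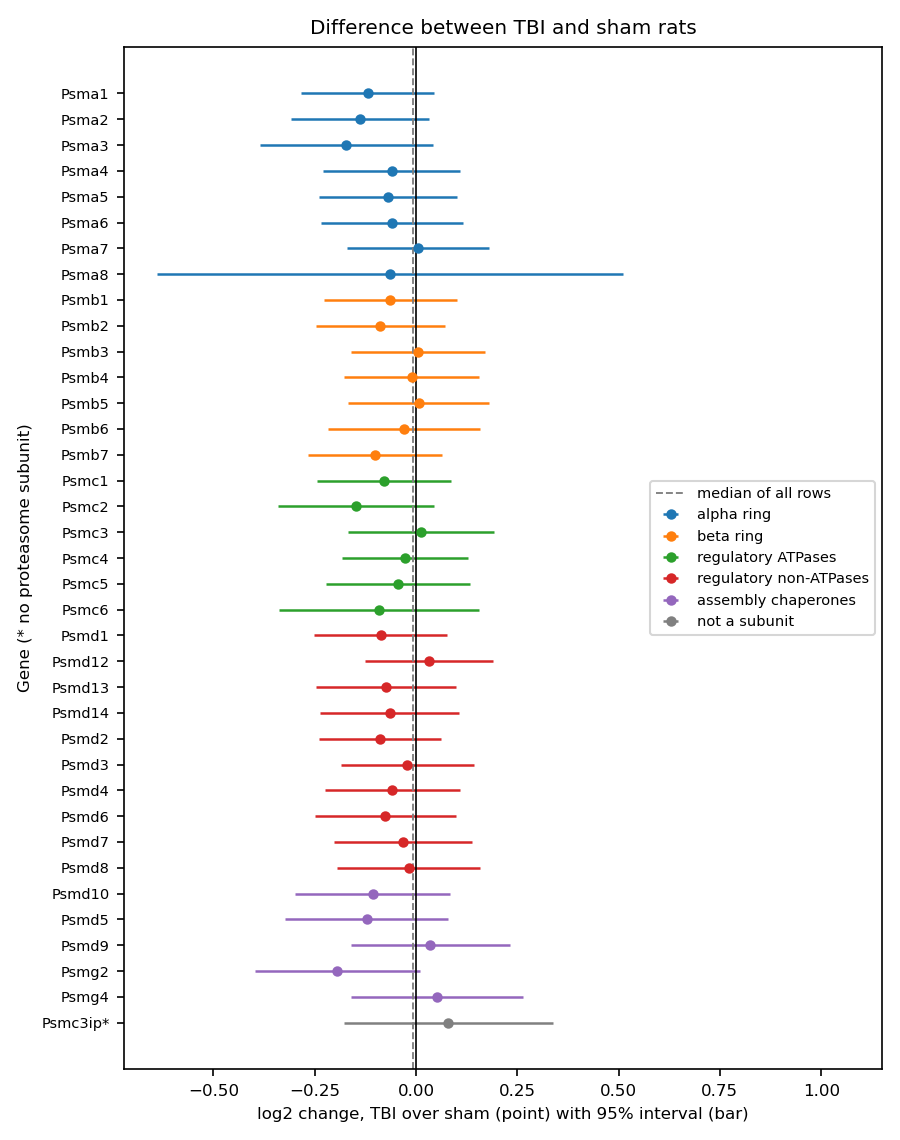
Fitted log2 change of TBI over sham for the 37 members (points) with its 95% interval (bars), coloured by role; the dashed line is the median of all rows tested. Every interval includes 0, the points lie between -0.19 and 0.08, and Psma8 has the widest interval, from -0.64 to 0.51.

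In the alpha ring, 0 of 8 genes had an unadjusted p under 0.05, and 7 had a log2 change below 0. Over all rows tested these shares were 7.89% and 52.2%. With so few rows called, a class of this size often holds none. The smallest p in this class belonged to Psma2. Its level was 35.5, 42.9, 35.9, 41.6 and 35.7 CPM in sham replicates 1 to 5 and 33.8, 31.7, 34.3, 36.3 and 38.0 CPM in TBI replicates 1 to 5. The 2 highest values were both in sham rats, but the remaining values overlapped. The log2 change was -0.14 (SE 0.0811, adjusted p = 0.721). Psma3, named here after its values were seen, had a log2 change of -0.17 (SE 0.102, adjusted p = 0.723).

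Psma7 and Psma8 code for alternative forms of the same alpha position, of which Psma8 is known from testis. Psma7 was at 89.5 CPM ± 6.38 in sham and 89.7 CPM ± 9.30 in TBI rats (SD, n = 5 in each group). Its log2 change was 0.00, with a 95% interval from -0.17 to 0.18. Psma8 was barely counted, at 0.41 to 1.44 CPM in sham and 0.75 to 1.27 CPM in TBI rats. It had a mean of 31.1 reads per library, and the interval of its ratio of TBI to sham ran from 0.643 to 1.43, so that a change of this size was not detectable at this depth.

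All 3 catalytic genes of the beta ring overlapped between the groups. Psmb5, the chymotrypsin-like subunit, was at 118, 101, 113, 119 and 112 CPM in the sham rats and 96.6, 108, 118, 113 and 129 CPM in the TBI rats. Both the lowest and the highest value were in injured rats, and the means were 113 CPM ± 7.38 in sham and 113 CPM ± 12.0 in TBI rats (SD, n = 5). The ratio of TBI to sham was 1.00, with a 95% interval from 0.890 to 1.13.

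Psmb6, the caspase-like subunit, was at 29.5, 26.2, 29.8, 32.2 and 28.6 CPM in the sham rats and 25.1, 25.1, 30.4, 29.7 and 32.8 CPM in the TBI rats. Its ratio was 0.979, with an interval from 0.860 to 1.12. Psmb7, the trypsin-like subunit, was at 131, 125, 110, 135 and 113 CPM in the sham rats and 106, 108, 120, 120 and 120 CPM in the TBI rats. The 3 highest values of Psmb7 were in sham rats and the 2 lowest in TBI rats, with a ratio of 0.933 and an interval from 0.831 to 1.05 (adjusted p = 0.799 in edgeR). Among all 7 beta genes, 5 had a log2 change below 0, against 52.2% of all rows tested. The range was from -0.10 to 0.01.

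Each catalytic subunit has an interferon-inducible counterpart at its position in the ring, so the log2 ratio of counts of the pair was taken within each library, where it needs no library size. The ratio of Psmb10 to Psmb7 was -2.96, -2.75, -2.59, -2.80 and -2.73 in the sham rats and -2.44, -2.32, -2.45, -2.61 and -2.20 in the TBI rats. In this pair, 4 of 5 TBI rats lay above every sham rat, and only TBI replicate 4 lay within the sham range. The mean was 0.36 higher in TBI rats, or 1.28-fold (two-sided exact permutation p = 0.0159, adjusted p = 0.0476 over the 3 ratios, 252 splits). This call was lost, at an adjusted p of 0.0714, when any 1 of 8 rats was left out, the exceptions being sham replicate 3 and TBI replicate 4, while the difference stayed between 0.309 and 0.412.

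The ratio of Psmb9 to Psmb6 was -3.43, -3.07, -2.18, -2.81 and -3.21 in the sham rats and -2.11, -1.89, -2.63, -2.83 and -1.97 in the TBI rats. Sham replicate 3 stood among the TBI values, and TBI replicate 4 among the sham values. The mean was 0.66 higher in TBI rats, or 1.58-fold, which missed the threshold (exact permutation p = 0.0556, adjusted p = 0.0833). The ratio of Psmb8 to Psmb5 was 0.56 higher, or 1.48-fold, with an adjusted p of 0.135 in the same exact permutation test. Here too sham replicate 3, at -4.33, lay well above the other sham rats, which ranged from -6.02 to -5.24. Without this rat the differences were 0.847 for Psmb9 to Psmb6 and 0.807 for Psmb8 to Psmb5. Without TBI replicate 4, the difference for Psmb9 to Psmb6 was 0.793. Both rats were picked because their ratios stood against those of their group, so larger differences follow from that choice. No p is read after leaving them out.

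**Figure D2:**
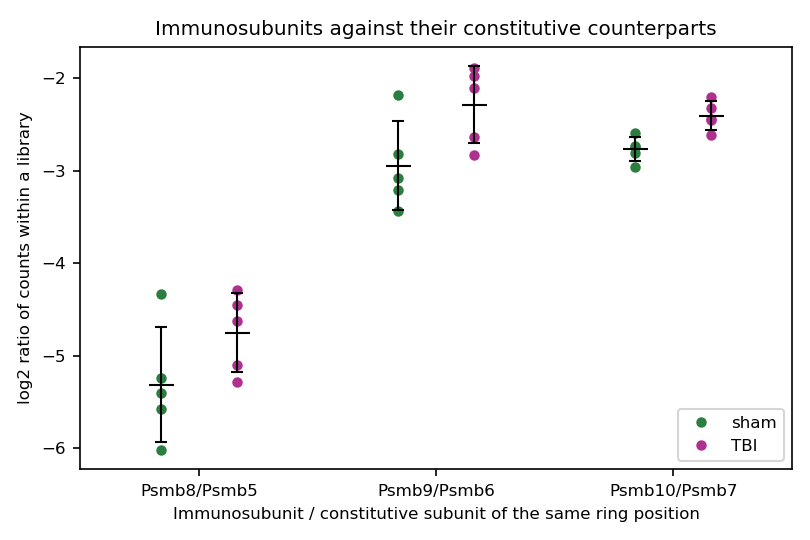
Log2 ratio of the counts of each immunosubunit to those of the constitutive subunit at the same ring position, per rat (points), with mean and SD of 5 rats per group (black). All 3 means are higher in TBI rats, by 0.56, 0.66 and 0.36 from left to right, the groups overlap in each pair, and the high sham point in the first 2 pairs is replicate 3.

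Fitted over all rows, the constitutive genes of these pairs had log2 changes of 0.01, -0.03 and -0.10, given above. Psmb10 was at 16.9 to 19.4 CPM in sham rats and 19.5 to 26.1 CPM in TBI rats, without overlap. Its log2 change was 0.27 (SE 0.091, adjusted p = 0.487 in edgeR). Psmb9 had a log2 change of 0.58 (SE 0.258, adjusted p = 0.621), and Psmb8 one of 0.50 (SE 0.31, adjusted p = 0.746). None of these passed the adjusted threshold over all rows. Unadjusted, Psmb10 and Psmb9 had a p under 0.05, which Psmb10 kept in 21 and Psmb9 in 10 of 22 alternative fits on single rows. The 1 fit in which Psmb10 lost this call had the ribosomal RNA share as a covariate. Psmb9 lost it there too, and the log2 changes were 0.23 for Psmb10 and 0.431 for Psmb9. The mean ribosomal share was 38.7% in sham and 19.7% in TBI rats. Of the astrocyte markers, Gfap and Aldh1l1 of 5 genes had an unadjusted p under 0.05 with higher levels in TBI rats, and of the microglial markers Aif1 of 5 did. Among all rows tested, 4.89% were higher at this threshold. The adjusted p in edgeR was 0.514 for Gfap, 0.555 for Aldh1l1 and 0.55 for Aif1. The part of these cells in the ratios was not tested.

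The 6 ATPases of the regulatory particle unfold substrates, and 0 of 6 had an unadjusted p under 0.05, against 7.89% of all rows. Psmc2 had the smallest p of the class. It was at 98.8, 114, 85.1, 102 and 101 CPM in the sham rats and 78.7, 81.1, 91.2, 96.6 and 104 CPM in the TBI rats. Its 2 lowest values were in TBI replicates 1 and 2, and the log2 change was -0.15 (SE 0.092, adjusted p = 0.735). Psmc5 was at 162 CPM ± 9.65 in sham and 157 CPM ± 17.8 in TBI rats (SD, n = 5), with a 95% interval of the log2 change from -0.22 to 0.13. Psmc6 was the most uneven ATPase, at 38.4 CPM in TBI replicate 1 and 23.2 CPM in TBI replicate 2, with sham rats between 29.5 and 37.8 CPM.

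The 10 non-ATPases form the scaffold and the ubiquitin-handling part of the regulatory particle. Of these, 0 had an unadjusted p under 0.05 and 9 had a log2 change below 0. Over all rows tested these shares were 7.89% and 52.2%. Psmd2, a scaffold subunit that docks ubiquitin shuttles, varied least of all members, with a coefficient of variation of 5.84% over the 10 rats. It was at 202, 203, 188, 210 and 188 CPM in the sham rats and 171, 186, 197, 194 and 184 CPM in the TBI rats. The log2 change was -0.09 (SE 0.0718, adjusted p = 0.809). Psmd14, the deubiquitinase that cleaves chains from substrates, was at 33.5 CPM ± 2.45 in sham and 32.0 CPM ± 2.83 in TBI rats (SD, n = 5), with a log2 interval from -0.24 to 0.11.

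The balance between the regulatory particle and the core was also compared. Summed counts of the 16 regulatory particle genes over those of the 15 core genes gave ratios from 1.64 to 1.78 in sham and 1.68 to 1.72 in TBI rats. On the log2 scale this was 0.76 ± 0.0476 in sham and 0.76 ± 0.0137 in TBI rats (SD, n = 5), a difference smaller than either spread. The ratio is not corrected for length and says nothing of the number of particles.

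The assembly chaperones Psmd5, Psmd9, Psmd10, Psmg2 and Psmg4 help to build the base or the core and are absent from the finished complex. The smallest p of all members belonged to Psmg2, whose product helps to assemble the alpha ring. Psmg2 was at 8.77, 10.4, 8.22, 9.59 and 8.50 CPM in the sham rats and 7.22, 7.77, 8.16, 8.03 and 8.57 CPM in the TBI rats. The 4 lowest values were in TBI rats, and TBI replicate 5 lay within the sham range. The log2 change was -0.19 (SE 0.0972, adjusted p = 0.651). Psmd9, which assists the ATPase ring, was at 19.9 CPM ± 2.19 in sham and 20.4 CPM ± 1.96 in TBI rats (SD, n = 5). Psmc3ip, no subunit, had a log2 change of 0.08 (SE 0.122), the highest of the members.

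When 1 rat was left out, the number of members with an unadjusted p under 0.05 was 0 to 2, all lower in TBI, against 5.19% to 11.5% of all rows in the same fits. These were Psmg2 and Psmc2 without sham replicate 3 or without TBI replicate 5, Psma3 without sham replicate 4, and Psmg2 and Psma1 without sham replicate 5. None of these members had an adjusted p under 0.05 in any of the 23 alternative fits, most of which called no row of any kind.

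The spread between rats was shared by most members. For each member, log2 CPM was centred on the gene's mean over the 10 rats, and the mean over members was taken as a level per rat. It was 0.066, 0.060, -0.062, 0.051 and 0.020 in the sham rats and -0.129, -0.145, 0.016, 0.020 and 0.104 in the TBI rats. TBI replicates 1 and 2 were lowest and TBI replicate 5 highest, so that the injured rats spanned the whole range. On this TMM scale the sham rats with the high ribosomal share, replicates 4 and 5, lay within the range of the other rats. As a share of counts outside ribosomal RNA, the members were lowest in these rats, at 0.277% and 0.289%. That share was 0.325% to 0.381% in the other rats, with means of 0.323% in sham and 0.346% in TBI rats. Part of the pattern of the TMM-scaled levels was seen outside the members. The ubiquitin and shuttle genes had their lowest means in TBI replicates 1 and 2 and sham replicate 3, at -0.085, -0.057 and -0.048. Other activators and bound factors were lowest in TBI replicate 2 (-0.138) and highest in TBI replicate 5 (0.158). The immunosubunit and transcription factor lists stood above their own means in TBI replicates 1 and 2 and sham replicate 3. They were also above them in TBI replicate 5, the highest rat for the members, at 0.465 and 0.122. TBI replicate 4 was above for the transcription factor list (0.068) and below for the immunosubunit list (-0.072).

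**Figure D3:**
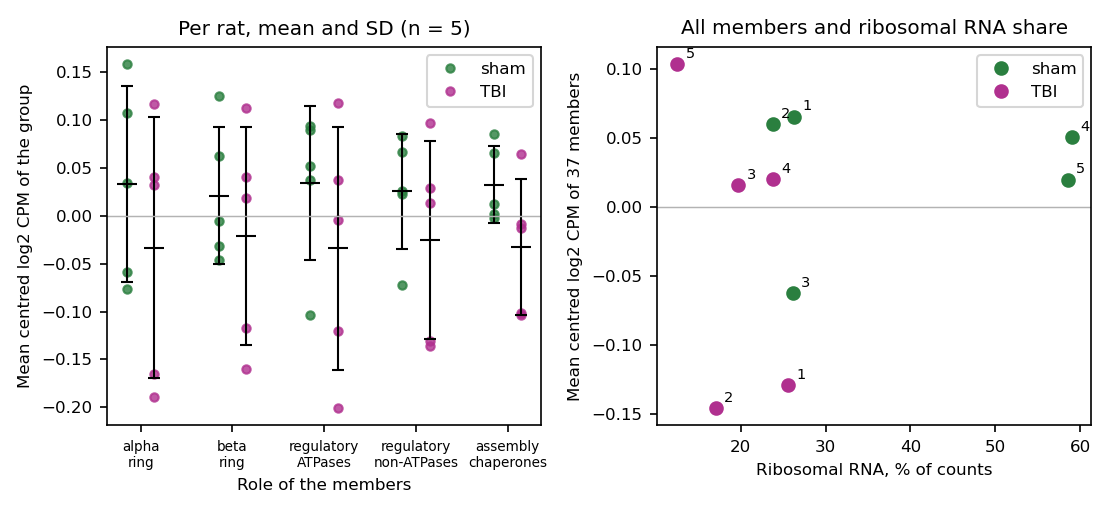
Mean centred log2 CPM per rat, by role of the members with mean and SD of 5 rats (left), and for all 37 members against the share of counts on ribosomal RNA, with replicate numbers (right). TBI replicates 1 and 2 are lowest in the right panel at -0.129 and -0.145. On the TMM scale of the vertical axis, the 2 sham rats near 59% ribosomal RNA are not apart from the others.

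With the group means removed, the mean Pearson correlation over the 666 pairs of members was 0.402 across 10 rats, against 0.000177 over pairs of all rows tested, and 577 pairs (86.6%) were above 0. Points of these correlations share the library and its scaling, and 10 rats give few degrees of freedom, so they are a description. TMM scaling holds the average of all rows about level between libraries. The value over all rows is therefore near 0 by construction and is no baseline. Most rows have fewer counts than the members, and no set of equally counted rows was compared. Within roles the mean was 0.586 in the beta ring, 0.498 among non-ATPases, 0.488 among ATPases, 0.370 in the alpha ring and 0.0235 among the assembly chaperones. Psma4, Psmc5 and Psmb1 followed the mean of the other members most closely, at 0.972, 0.951 and 0.939. At the other end stood Psmc3ip at -0.352, Psmd5 at 0.101 and Psmg4 at 0.126. The members at both ends were chosen after their values were seen, apart from Psmc5.

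**Figure D4:**
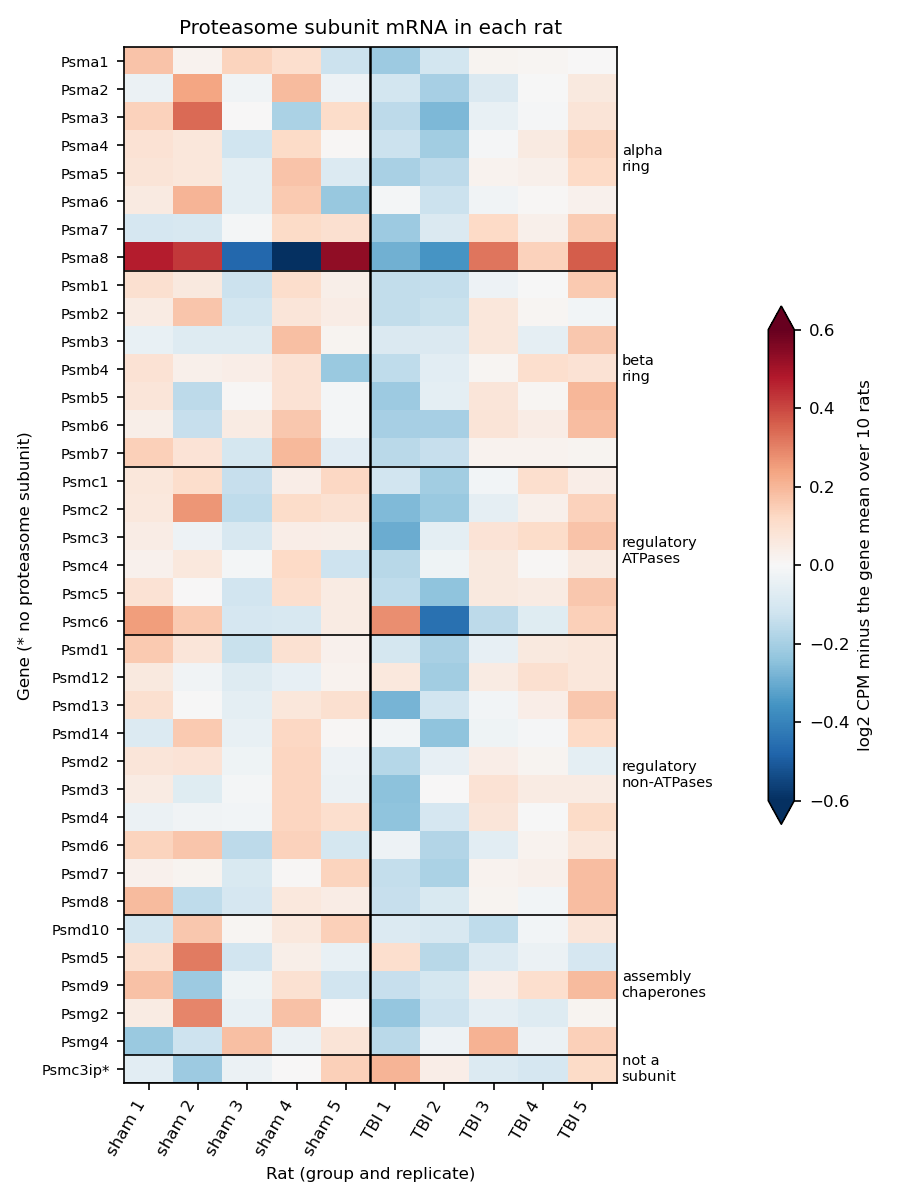
Log2 CPM of each member minus its mean over 10 rats (colour; the scale stops at 0.6 either side of 0), by rat and ordered by role. Columns TBI 1 and TBI 2 are blue for most subunits and TBI 5 is red for most, while Psma8, with 31.1 reads per library, has the strongest colours.

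The 3 rats with the lowest member level, TBI replicates 2 and 1 and sham replicate 3, were also the 3 with the highest level of the astrocyte markers and of the microglial markers. The mean centred log2 CPM of the 5 astrocyte genes was 0.396, 0.517 and 0.133 in these rats and lower in each of the others, down to -0.330. For the 5 microglial genes it was 0.212, 0.396 and 0.169, and from -0.343 to 0.082 in the others. By group, the astrocyte level ran from -0.330 to 0.133 in sham and from -0.216 to 0.517 in TBI rats, and no gene of either list was at 0. The 5 neuronal genes were lowest in TBI replicates 2 and 1, at -0.131 and -0.103. TBI replicate 5, highest for the members, was above 0 for the astrocyte genes (0.089) and the microglial genes (0.034). The highest member levels, in TBI replicate 5 (0.104) and sham replicate 1 (0.066), fell in the rats with the lowest dentate levels. These were -0.77 and -1.17, against -0.18 to 0.55 in the other rats. The matches with the glial and dentate markers were noticed in the values, and the part of any of these cells in the member level was not tested.

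Other genes of the pathway were read from fixed lists. In the list of immunosubunits and the PA28 activator, Psmb9 and Psmb10 of 5 genes had an unadjusted p under 0.05, both higher in TBI, and the median log2 change was 0.27. Of all rows tested, 4.89% were higher and 3% lower at this threshold. The PA28 genes had log2 changes of opposite sign, neither past the test, with Psme1 at 0.18 (SE 0.0916, adjusted p = 0.661) and Psme2 at -0.14 (SE 0.113, adjusted p = 0.809). Of 8 other activators, inhibitors, assembly and bound factors, 0 were higher and 1 was lower at an unadjusted p under 0.05, with a median of -0.02.

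The lower gene of that list was Usp14, a deubiquitinase that binds the regulatory particle and trims chains. It was at 66.1 to 81.5 CPM in the sham rats and 56.5 to 75.2 CPM in the TBI rats, with a log2 change of -0.19 (SE 0.0864, adjusted p = 0.626), and its unadjusted p stayed under 0.05 in 10 of 22 alternative fits. Pomp, which matures the beta ring, had a log2 change of -0.08 (SE 0.0962).

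Of the 7 genes of the transcription factor route that were matched, 1 had an unadjusted p under 0.05, against 7.89% of all rows tested. The median log2 change was 0.10. Nfe2l1 was at 53.8 CPM ± 7.90 in sham and 52.8 CPM ± 2.73 in TBI rats (SD, n = 5), with a log2 change of -0.03 (SE 0.0909). Nfe2l2, the related factor of the oxidative stress response, was at 7.61 to 8.94 CPM in sham rats and at 14.5, 10.6, 7.599, 9.36 and 9.92 CPM in TBI rats. Its log2 change was 0.33 (SE 0.137, adjusted p = 0.589), and 0.175 without TBI replicate 1, the highest rat. Its unadjusted p stayed under 0.05 in 15 of 22 alternative fits. The genes of ubiquitin and its shuttles had a median log2 change of -0.05.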

How the data were processed

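Poly-A messenger RNA of 10 rats was sequenced as reads of 36 bases. The authors deposited raw counts per RefSeq RNA record, and the processing notes of the submitters name BWA and the rn4 assembly. The methods of the study describe Ensembl transcripts, and how this relates to the RefSeq rows was not settled. The empty entry and the unmapped reads (12.8% to 26.1%) were left out of library sizes and tests. A RefSeq gene table of another assembly, GRCr8, named 57.7% of the rows tested and gave the promoters. Reads shared with near-identical copies, of which proteasome genes have many, and strand are uncertain.

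Groups were compared with edgeR 4.0.16 (TMM, robust quasi-likelihood F test) in R 4.3.3 on rows with at least 44 counts in all, with Benjamini-Hochberg adjustment over all rows. Within-library ratios used a pseudocount of 0.5. CPM used the TMM library sizes, and centred log2 CPM a prior count of 2. The scripts were tested on simulated data. Alternatives used DESeq2 1.42.0, limma 3.58.1 and sva 3.50.0, other scalings and filters, a ribosomal RNA covariate, and left out rats. The labels give no batch.

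The members and the gene lists were chosen with earlier results of these data known. Named members were Psmb5, Psmb6 and Psmb7, and in each role the genes with the smallest p, the highest and the lowest mean level. Named pathway genes were those of fixed interest and those with an unadjusted p under 0.05. Others are marked as named after their values were seen. A gene of the fixed lists is not reported here.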

Additional observations from a re-analysis of the deposited data

Results flagged for a closer look

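Among 74 groups of 5 rats checked for a sample far from the others, 2 held one, where chance gives about 1 in 20, or 3.7. The mean level of the 6 regulatory ATPases in sham replicate 3 was -0.103 on the centred log2 scale, against 0.0374 to 0.0936 in the other sham rats. The mean level of the transcription factor route in sham replicate 3 was 0.0912, against -0.162 to -0.0957 in the other sham rats. The same rat also had the highest sham values of the Psmb8 to Psmb5 and Psmb9 to Psmb6 ratios.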

How the results depend on the processing

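All 23 alternative fits gave 0 members with an adjusted p under 0.05. Of all rows, 92 passed with total count scaling, 12 without TBI replicate 3 and 5 without sham replicate 3. In DESeq2 3 rows passed, and in the other fits 0 did, so the members are not set apart by this. The number with an unadjusted p under 0.05 was 1, lower in TBI, with a ribosomal RNA covariate, against 4.42% of all rows. It was also 1, lower in TBI, without the 2 sham rats with the highest ribosomal share, against 5.61% of all rows. The gene was Psma3 in both fits, and the number was 0 to 2 when 1 rat was left out. Scaling by total counts moved all rows: the median log2 change of the members became 0.446 while that of all rows became 0.498, their mean level per rat was 0.553 higher in TBI, Usp14 turned to 0.323, and the mean pairwise correlation became 0.952. Relative to all rows the members stayed at -0.05. Leaving out 1 rat gave 0.309 to 0.412 for the Psmb10 to Psmb7 ratio, 0.386 to 0.807 for Psmb8 to Psmb5 and 0.534 to 0.847 for Psmb9 to Psmb6. Without the 2 high-ribosomal sham rats Psmb10 to Psmb7 was 0.359 (exact adjusted p = 0.107). The cause was not tested. No paired analysis was possible because the replicate numbers only name the rats within a group. The depth limits Psma8 most.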
